A study of Mus musculus with 3 samples.

Results

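The 10 genes described here encode the 3 SoxF transcription factors (Sox17, Sox18 and Sox7), 4 cell surface components of the Wnt receptor complexes of brain endothelium (Fzd4, Tspan12, Lrp5 and Adgra2), and a nuclear Wnt effector with 2 feedback inhibitors of the pathway (Lef1, Axin2 and Apcdd1). They were chosen by name, and all 10 were found among the 29917 genes that could be named in the expression files. Messenger RNA of brain vessels from 3-month-old male mice was sequenced in 3 libraries, each prepared from the pooled vessels of 3 mice: C57BL6 WT, C57BL6/Balbc WT (Cx30+/+) and Cx30Δ/Δ, in which the astroglial gap junction gene Gjb6, encoding connexin 30 (Cx30), is deleted in all cells. The 2 WT libraries were made because genetic background affects transcription. For the Cx30Δ/Δ library the sample label gives a C57BL6 background whereas the paper's methods give C57BL6/Balbc. With 1 library per group, no difference could be set against a spread between replicates, and no statistical test of a difference was made.

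Wnt ligands secreted by neural cells act on brain endothelium through β-catenin to establish and maintain the blood-brain barrier (BBB). Wnt7a and Wnt7b signal through Frizzled receptors with Reck and Gpr124 (encoded by Adgra2), and norrin (Ndp) signals through Fzd4 with Lrp5 and Tspan12. Stabilized β-catenin enters the nucleus and binds Lef1 and other TCF factors, which activate genes such as Axin2 and Apcdd1, both inhibitors of the pathway. SoxF factors are endothelial regulators of vessel growth and arterial identity, and Sox17 is known as a gene acting downstream of Wnt/β-catenin signaling in this tissue.

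The SoxF proteins bind DNA through related HMG boxes, so that their genes could share reads. Over the whole transcripts, however, 0 of the 50-base windows of Sox17 and of Sox18 and 2 of 3250 windows of Sox7 also occurred in a transcript of another gene, and few of the 50-base reads could be exchanged between them.

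Promoters were examined for Axin2, Fzd4, Lef1 and Tspan12, the 4 genes with an entry in the RefSeq promoter table (GRCm38.p6). The 250 bases before the start site are shown for Lef1 (first of its 4 listed start sites; chr3:131110047-131110296, plus strand) and for Axin2 (chr11:108920099-108920348, plus strand), the nuclear factor and its best known feedback target, with matches to the TCF/LEF core CTTTG (or CAAAG on the other strand) in capitals.
Lef1: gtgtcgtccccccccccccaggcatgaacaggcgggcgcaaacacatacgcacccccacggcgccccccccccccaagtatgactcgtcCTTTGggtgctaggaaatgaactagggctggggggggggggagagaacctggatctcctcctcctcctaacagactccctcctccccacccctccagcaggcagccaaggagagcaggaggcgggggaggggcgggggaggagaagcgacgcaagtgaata
Axin2: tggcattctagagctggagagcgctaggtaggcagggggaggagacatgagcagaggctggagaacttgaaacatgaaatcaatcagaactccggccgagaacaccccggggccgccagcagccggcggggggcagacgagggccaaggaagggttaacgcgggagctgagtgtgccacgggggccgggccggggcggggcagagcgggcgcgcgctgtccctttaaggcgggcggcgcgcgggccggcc
This Lef1 window held 1 match and the Axin2 window held 0, while the windows of the other Lef1 start sites held 2, 1 and 3. Of 32851 promoter windows of this length, 48.6% held this motif, so that a match is common. Fzd4 held 0 matches and Tspan12 held 1. The SOX core ACAAT (or ATTGT) was in 27.7% of all windows, and had 1 match among the windows of the 4 genes, in the last of Lef1.

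Each value is given first for C57BL6 WT, then for C57BL6/Balbc WT and last for Cx30Δ/Δ vessels, and each pair of log2 ratios first over C57BL6 WT and then over C57BL6/Balbc WT, unless stated otherwise. The deposited counts summed to 60725557, 53484865 and 50375426. Counts were divided by size factors (1.1452, 0.9258 and 0.9532, respectively) to give normalized counts, and a 95% interval, printed after each log2 ratio, covers the sampling of reads only. The deleted gene Gjb6 had raw counts of 2899, 2246 and 96. Endothelial markers were abundant in all 3 libraries, with a geometric mean of 7580.1, 4811.4 and 9232.5 normalized counts over 12 genes, as the label of the tissue implies. In bulk RNA, fewer cells of a type and less RNA per cell cannot be told apart.

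All 10 genes were expressed in the 3 libraries, and all 10 had their highest level in Cx30Δ/Δ vessels when libraries were scaled on all genes. In WT vessels of the C57BL6 background, levels per kilobase of transcript ran from 203.9 normalized counts for Sox7 to 1865.9 for Apcdd1, which was at the 96.7th percentile of 13987 genes that reached 50 normalized counts in every library. Sox18 came next to Apcdd1 with 1387.4 per kilobase, followed by Adgra2 (922.0) and Sox17 (892.5), whose counting intervals overlapped. Lef1 (594.1) and Axin2 (526.8) were intermediate. Lrp5 (409.0), Fzd4 (387.5) and Tspan12 (354.2) formed a group in which the intervals of neighbours overlapped. Among the SoxF genes, Sox18 thus had the highest level per kilobase and Sox7 the lowest, in each of the 3 libraries. In C57BL6/Balbc WT vessels the order was similar, with Apcdd1 (1422.0) and Sox18 (1416.8) overlapping. In Cx30Δ/Δ vessels Sox17, at 1575.3 per kilobase, stood at the 95.6th percentile, against the 87.9th and 88.9th in the WT libraries. The transcript row of Fzd4 in the files is 2959 bases long, whereas GENCODE M21 gives 6720, so that its level per kilobase describes a part of that transcript. For Apcdd1 the row is 2799 bases long and the GENCODE M21 transcript 1842. Reads were not recounted over the shorter model, so the level per kilobase of Apcdd1 and its place beside Sox18 hold for the row only.

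**Figure D1:**
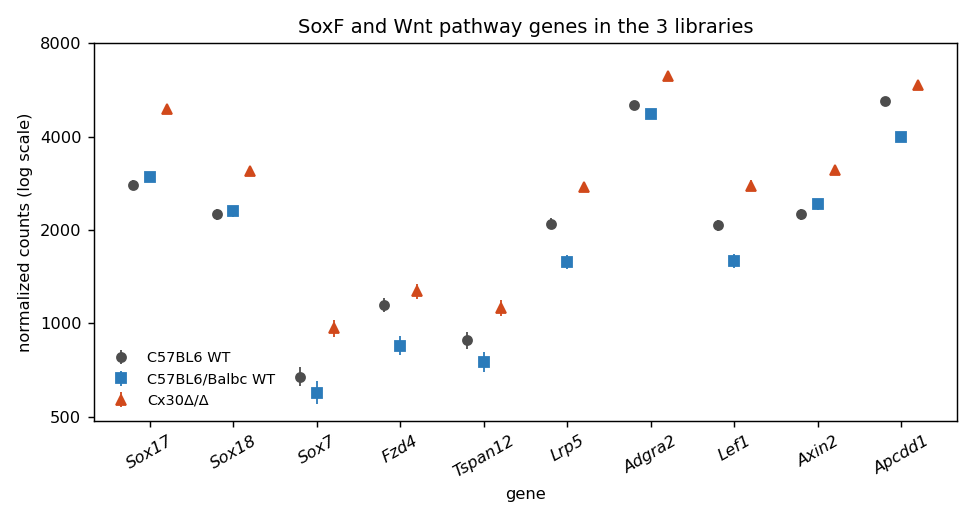
Normalized counts (log scale) of the 10 genes in C57BL6 WT (circles), C57BL6/Balbc WT (squares) and Cx30Δ/Δ vessels (triangles), with 95% Poisson intervals of the read counts. The triangle is the highest point for each gene on this scaling, from 964.1 for Sox7 to 6261.8 for Adgra2, and the squares lie below the circles for 7 genes.

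Among the SoxF genes, Sox17 showed the largest difference between Cx30Δ/Δ and WT vessels. Sox17 (ENSMUSG00000025902; chromosome 1, 4490931 to 4497354, minus strand) had 2793.4 normalized counts in C57BL6 WT vessels, 2967.1 in those of C57BL6/Balbc WT mice and 4930.5 in those of Cx30Δ/Δ mice. The WT values lay close together and the Cx30Δ/Δ value was well above both. The log2 ratios of Cx30Δ/Δ were 0.82 (0.75 to 0.89) and 0.73 (0.66 to 0.80), or 1.76-fold and 1.66-fold, and the interval of the second overlapped that of Sox7. Its other transcript row, Sox17-202, gave log2 ratios of 0.82 and 0.75. The same library of Cx30Δ/Δ vessels enters both ratios, which are therefore not independent.

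Sox18 (ENSMUSG00000046470; chromosome 2, 181669836 to 181671640, minus strand), a factor of endothelial and lymphatic development, reached 2247.6, 2295.2 and 3101.0 normalized counts. The WT libraries were indistinguishable by read counting, with a log2 ratio of 0.03 (-0.05 to 0.11). Against them, the Cx30Δ/Δ library had log2 ratios of 0.46 (0.39 to 0.54) and 0.43 (0.35 to 0.52), respectively. Sox7 (ENSMUSG00000063060; chromosome 14, 63943673 to 63950732, plus strand) reached 672.4, 597.3 and 964.1 normalized counts, the lowest levels of the 10 genes. Its log2 ratios were 0.52 (0.38 to 0.66) and 0.69 (0.54 to 0.85). Sox7 lies 6.81 Mb from the deleted Gjb6 on the same chromosome, and the part of this linkage in its value was not tested. The other Sox genes did not share this pattern as a group. Of 16 listed, 10 passed the minimum of 50 normalized counts in at least 1 compared library, 3 being higher and 5 lower in Cx30Δ/Δ than in both WT libraries, with median log2 ratios of -0.04 and -0.06. Among all 14688 genes past the minimum in both comparisons, 5454 were higher and 5375 lower than in both. Sox13 had the highest ratio against C57BL6 WT (0.56) and Sox9, a glial factor, against C57BL6/Balbc WT (0.65), while Sox10, an oligodendrocyte factor, was the lowest in the first comparison (547.5, 401.8 and 273.8 normalized counts) and Sox11 in the second (-0.85).

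The receptor complex genes were also higher in Cx30Δ/Δ than in either WT library, with smaller ratios against C57BL6 WT than against C57BL6/Balbc WT. Fzd4 (ENSMUSG00000049791; chromosome 7, 89404355 to 89413134, plus strand), the Frizzled receptor of norrin, was at 1146.5, 846.8 and 1267.3 normalized counts. The Cx30Δ/Δ and C57BL6 values were close, with a log2 ratio of 0.14 (0.03 to 0.26), and the C57BL6/Balbc WT value was the one that stood apart (0.58, 0.45 to 0.71). For Tspan12 (ENSMUSG00000029669; chromosome 6, 21771395 to 21852515, minus strand), the tetraspanin that amplifies norrin signaling, the levels were 881.9, 748.5 and 1121.4 normalized counts. Its log2 ratios were 0.35 (0.22 to 0.47) and 0.58 (0.44 to 0.72). The log2 ratio between the WT libraries was -0.24, whose size lay within the interval of the first of these. Lrp5 (ENSMUSG00000024913; chromosome 19, 3584828 to 3686564, minus strand), the coreceptor, had 2093.1, 1575.9 and 2752.7 normalized counts. Its log2 ratios were 0.40 (0.31 to 0.48) and 0.80 (0.71 to 0.90), and the log2 ratio between the WT libraries was -0.41, slightly larger in size than the first of these. Adgra2 (ENSMUSG00000031486; chromosome 8, 27085583 to 27123436, plus strand), coreceptor for Wnt7 ligands, had 5069.9, 4726.6 and 6261.8 normalized counts, with close values in the WT libraries. The corresponding log2 ratios were 0.30 (0.25 to 0.36) and 0.41 (0.35 to 0.46).

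The nuclear factor and the feedback genes were likewise highest in Cx30Δ/Δ vessels. Lef1 (ENSMUSG00000027985; chromosome 3, 131110471 to 131224356, plus strand) was at 2068.6, 1586.7 and 2782.1 normalized counts. This gave log2 ratios of 0.43 (0.35 to 0.51) and 0.81 (0.72 to 0.90). Strand was not recorded, and 1208 of the 3482 exonic bases of Lef1 overlap the antisense gene Gm43352, whose reads cannot be told apart from those of Lef1. Axin2 (ENSMUSG00000000142; chromosome 11, 108920349 to 108950783, plus strand), a scaffold of the β-catenin destruction complex, had 2244.2, 2417.3 and 3131.4 normalized counts. Unlike Lef1, it was slightly higher in C57BL6/Balbc WT than in C57BL6 WT, and its log2 ratios were 0.48 (0.40 to 0.56) and 0.37 (0.29 to 0.45). The sign between the WT libraries and the order of these ratios depended on the transcript row. Axin2-203 gave -0.06 between the WT libraries and ratios of 0.45 and 0.51, whereas Axin2-202 gave 0.24, and 0.49 and 0.25. Apcdd1 (ENSMUSG00000071847), a membrane-bound inhibitor that binds Wnt ligands, had 5222.7, 3980.2 and 5882.0 normalized counts. As for Fzd4, the C57BL6/Balbc WT library stood apart, and the log2 ratios were 0.17 (0.12 to 0.22) and 0.56 (0.50 to 0.62). Antisense genes also overlapped 207 exonic bases of Axin2 and 98 of Tspan12, and the protein-coding gene Brf2 on the opposite strand overlapped 73 of Adgra2. The other 6 genes had 0 overlapping bases.

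Together, the 10 genes differed in the same direction but by small amounts. None of the 10 reached 2-fold against C57BL6 WT (2.68% of 14776 genes did, in either direction), in the comparison with C57BL6/Balbc WT (8.69% of 14891) or in the same direction against both (1.42% of 14688). All 10 were higher in Cx30Δ/Δ than in C57BL6 WT vessels, as were 49.3% of all genes, and all 10 were higher than in C57BL6/Balbc WT vessels, as were 50.3%. The share of all genes higher than in both was 37.1%. The median log2 ratio of the 10 genes was 0.41 in the first comparison and 0.58 in the second, while that of all genes was -0.0046 and 0.004. The counting interval, which covers read sampling only, lay above 0 for all 10 genes in both comparisons. The share of all genes with such an interval was not computed. Scaling on endothelial genes, described further on, left 8 of the 10 above 0 in the first comparison and turned all 10 below 0 in the second. On that scaling the median of all genes was also below 0, at -0.29 and -0.95. At a threshold of 1.5-fold, Sox17 passed against C57BL6 WT (4.91% of all genes were at least 1.5-fold higher), and Sox17, Sox7, Lrp5 and Lef1 passed against C57BL6/Balbc WT (14.1%). Only Sox17 of the 10 passed it against both (3.23%).

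By a criterion added after the values were seen, 7 of the 10 genes were higher in Cx30Δ/Δ than in both WT libraries by more than the WT libraries differed from each other, on the scaling on all genes (15.7% of all genes were). For Fzd4, Lrp5 and Apcdd1 the difference between the WT libraries exceeded that between Cx30Δ/Δ and C57BL6 WT. None of the 10 differed 2-fold between the WT libraries (3.43% of 14791 genes did). Only Sox17, Sox18 and Axin2 were higher in C57BL6/Balbc WT than in C57BL6 WT vessels (50% of all genes were), by log2 ratios of 0.09, 0.03 and 0.11, and these signs were lost when counts were scaled on their sum. The other 7 were lower on all scalings but the endothelial one, from -0.10 for Adgra2 to -0.44 for Fzd4, with a median over the 10 genes of -0.20.

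**Figure D2:**
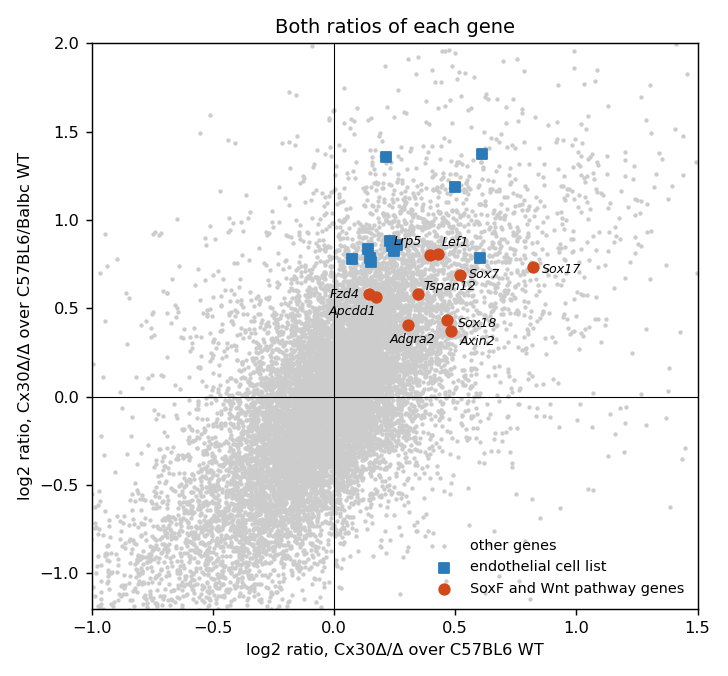
Log2 ratio of each gene against C57BL6 WT (horizontal axis) and against C57BL6/Balbc WT (vertical axis), for the 10 genes (red circles), the 12 genes of the endothelial cell list (blue squares) and the other genes past the minimum (grey), with genes beyond the axes not drawn. Both axes share the Cx30Δ/Δ library. On this scaling the 10 red points lie in the upper right part, where Sox17 is farthest to the right, and the endothelial genes lie higher than most of them on the vertical axis only.

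Genes of endothelial cells as a whole were also higher in the Cx30Δ/Δ library. All 12 genes of an endothelial list without any of the 10 were higher than in both WT libraries, with median log2 ratios of 0.23 and 0.84 on the scaling on all genes. Their summed level was 111395.7, 73448.9 and 134946.8 normalized counts. The C57BL6/Balbc WT library thus had the lowest endothelial level of the 3. Lists for other cells moved as well. The 8 neuronal genes were all lower in Cx30Δ/Δ than in both WT libraries, with medians of -0.53 and -0.84 and sums of 56067.2, 74261.2 and 40428.3 normalized counts. The 5 blood cell genes past the minimum were all higher, with medians of 1.09 and 2.36. Beside these lists, 5454 of all 14688 genes were higher and 5375 lower than in both WT libraries. Pericyte genes had medians of 0.13 and 0.64, those of fibroblasts 0.21 and 0.49, those of smooth muscle 0.28 and -0.14, and those of astrocytes -0.25 and -0.11. The choroid plexus list changed sign between the comparisons (-0.75 and 0.48), as did that of microglia (-0.20 and 0.10), whereas that of oligodendrocytes was below 0 in both (-0.40 and -0.33). Arterial (0.29 and 0.64) and venous (0.40 and 0.60) endothelial lists had medians above 0 in both. The part of the cell composition in the values of the 10 genes was not tested beyond the scaling that follows.

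Expressed relative to the 12 endothelial genes, none of the 10 genes was higher in Cx30Δ/Δ than in both WT libraries. Scaling on the geometric mean of the endothelial list brought the median log2 ratio of all genes to -0.29 against C57BL6 WT, to -0.95 against C57BL6/Balbc WT and to 0.66 between the WT libraries. In the first comparison, the median of the 10 genes became 0.13, with the interval above 0 for 6 genes and below 0 for Fzd4 (-0.14) and Apcdd1 (-0.11). In the second, it became -0.36, with all 10 intervals below 0, while the median of all genes was lower still (-0.95). Most of the 12 endothelial genes themselves also had intervals below 0 there, down to -0.18 for Tie1. The exceptions were Egfl7 (0.44), Emcn (0.42) and Erg (0.25), which lay above 0. Between the WT libraries all 10 genes were then higher in C57BL6/Balbc WT, with a median of 0.45 against 0.66 for all genes. The shares of all genes above or below 0 on this scaling were not computed, and the scaling itself moves most genes in these directions. Sox17 amounted to 36.9%, 61.7% and 53.4% of the endothelial mean. On this scale the Cx30Δ/Δ value lay between the WT values, and its log2 ratios were 0.54 and -0.21. Lef1 amounted to 27.3%, 32.98% and 30.1%, and Lrp5 to 27.6%, 32.8% and 29.8%, again with Cx30Δ/Δ between the WT libraries. Fzd4 (15.1%, 17.6% and 13.7%) and Apcdd1 (68.9%, 82.7% and 63.7%) were lowest in Cx30Δ/Δ vessels.

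**Figure D3:**
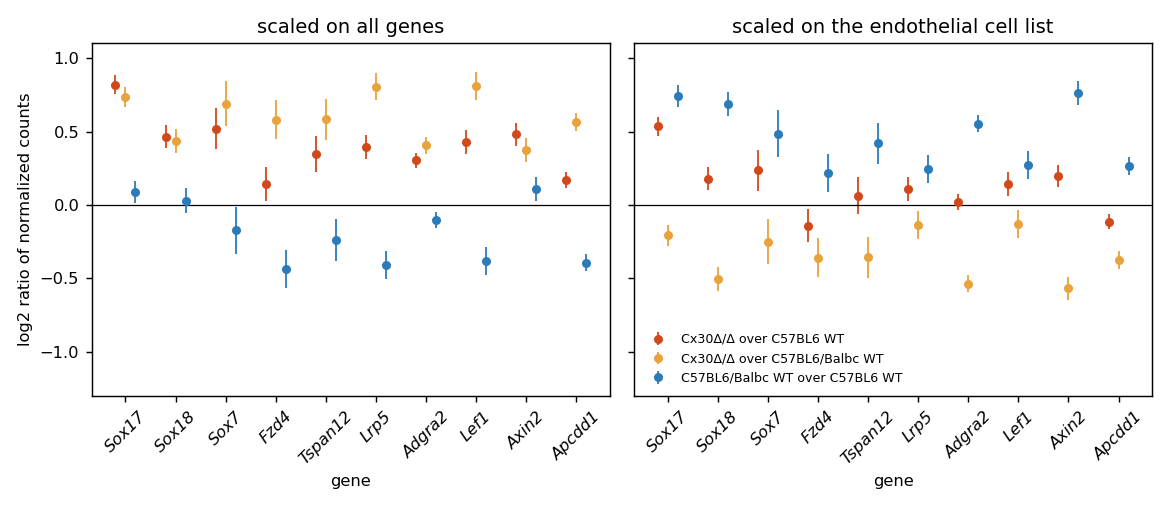
Log2 ratios of the 10 genes with 95% counting intervals, after scaling on all genes (left) and on the geometric mean of 12 endothelial genes (right), for Cx30Δ/Δ over C57BL6 WT (red), Cx30Δ/Δ over C57BL6/Balbc WT (orange) and C57BL6/Balbc WT over C57BL6 WT (blue). On the left all red and orange points are above 0, and on the right all orange points are below 0 and all blue points above it, with Sox17 the highest red point (0.54). The median of all genes on the right scaling was -0.29 (red), -0.95 (orange) and 0.66 (blue).

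Other genes of the Wnt pathway were less uniform. Of 92 listed, 79 passed the minimum in both comparisons, 40 being higher and 23 lower in Cx30Δ/Δ than in both WT libraries, with median log2 ratios of 0.10 and 0.09. The same counts over all 14688 genes past the minimum were 5454 higher and 5375 lower. At least 2-fold in both comparisons were Dkk2, a secreted modulator of Lrp5 and Lrp6, which was higher, and Wnt7a, which was lower. Dkk2 was at 166.8, 183.6 and 387.1 normalized counts, giving log2 ratios of 1.21 (0.96 to 1.47) and 1.08 (0.81 to 1.35). For Wnt7a the values were 148.4, 153.4 and 70.3, with log2 ratios of -1.08 (-1.51 to -0.66) and -1.13 (-1.57 to -0.70). On the endothelial scaling, which takes 0.28 and 0.94 off these ratios, Dkk2 would be under 2-fold in both comparisons.

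The ligand list leaned to lower values, with medians of -0.26 and -0.31. Wnt7b, the other ligand of the Gpr124 and Reck complex, had log2 ratios of -0.40 (-0.66 to -0.14) and -0.31 (-0.59 to -0.04). Ndp, encoding norrin, had low counts, with 86.4, 56.2 and 39.9 normalized counts, which gave log2 ratios of -1.12 (-1.70 to -0.56) and -0.49 (-1.14 to 0.14). Wnt16, which also had low counts, was the highest of the list against C57BL6 WT (0.80). Against C57BL6/Balbc WT it was Wnt5a, a ligand of β-catenin-independent signaling (0.97), whereas Wnt10a (-1.21) and Wnt2 (-1.36) were the lowest, respectively. The neuronal list was lower in the same library, and the part of neuronal RNA in the ligand values was not tested.

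Receptors and coreceptors other than the 4 described had medians of 0.13 and 0.09. Reck had log2 ratios of 0.23 (0.17 to 0.29) and 0.62 (0.55 to 0.69), and Lrp6 of 0.17 (0.11 to 0.24) and 0.13 (0.06 to 0.20). Fzd10 was the highest against C57BL6 WT (0.58) and Fzd6 against C57BL6/Balbc WT (1.01), while Lgr5, an R-spondin receptor, was the lowest in both (-0.88 and -1.13). Cytoplasmic components had medians of 0.02 and -0.18. Ctnnb1, encoding β-catenin, had 20055.1, 14982.3 and 22100.4 normalized counts, with log2 ratios of 0.14 (0.11 to 0.17) and 0.56 (0.53 to 0.59). It was the highest of its list against C57BL6/Balbc WT, Csnk1a1 being the highest against C57BL6 WT (0.31), and Apc2 (-0.45) and Dvl1 (-0.59) were the lowest. In the nuclear list (medians 0.11 and 0.26), the 3 other TCF factors were higher in Cx30Δ/Δ than in both WT libraries. Tcf7 had log2 ratios of 0.24 (0.12 to 0.35) and 0.76 (0.63 to 0.89), Tcf7l1 of 0.35 (0.18 to 0.53) and 0.39 (0.20 to 0.58), and Tcf7l2 of 0.12 (-0.05 to 0.28) and 0.22 (0.05 to 0.39). Bcl9l was the highest of this list against C57BL6 WT (0.43), and Pygo1 (-0.08) and Tle2 (-0.46) were the lowest.

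Further target genes had medians of 0.31 and 0.42, and 9 of the 11 past the minimum were higher in Cx30Δ/Δ than in both WT libraries, with 0 lower than in both. For comparison with this list and the barrier genes below, 5454 of 14688 genes were higher and 5375 lower than in both. Foxq1, a forkhead factor of brain endothelium, had log2 ratios of 0.53 (0.43 to 0.63) and 1.32 (1.19 to 1.45). The lowest ratios were those of Ccnd1 against C57BL6 WT (-0.29) and Myc against C57BL6/Balbc WT (-0.03). Secreted inhibitors had medians of 0.03 and 0.44, between Dkk2 and Frzb (-0.71 and -0.60). Of 6 barrier genes known to depend on endothelial Wnt signaling, 5 were higher than in both WT libraries, and Plvap, which marks fenestrated and immature endothelium, was lower than in both (-0.63, -0.78 to -0.48, and -0.18, -0.35 to -0.02). Cldn5, the main claudin of the BBB, had 25826.1, 12122.1 and 29047.2 normalized counts, with log2 ratios of 0.17 (0.15 to 0.19) and 1.26 (1.23 to 1.29). Its low value was that of the C57BL6/Balbc WT library, and the same held for the glucose transporter gene Slc2a1 (0.28 and 0.66) and for Mfsd2a, a lipid transporter that limits transcytosis (0.12 and 0.49). Abcb1a, encoding a drug efflux pump, was the highest of these genes against C57BL6 WT (0.42). These directions are those of the scaling on all genes, and subtracting 0.28 and 0.94 gives the endothelial scale.

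**Figure D4:**
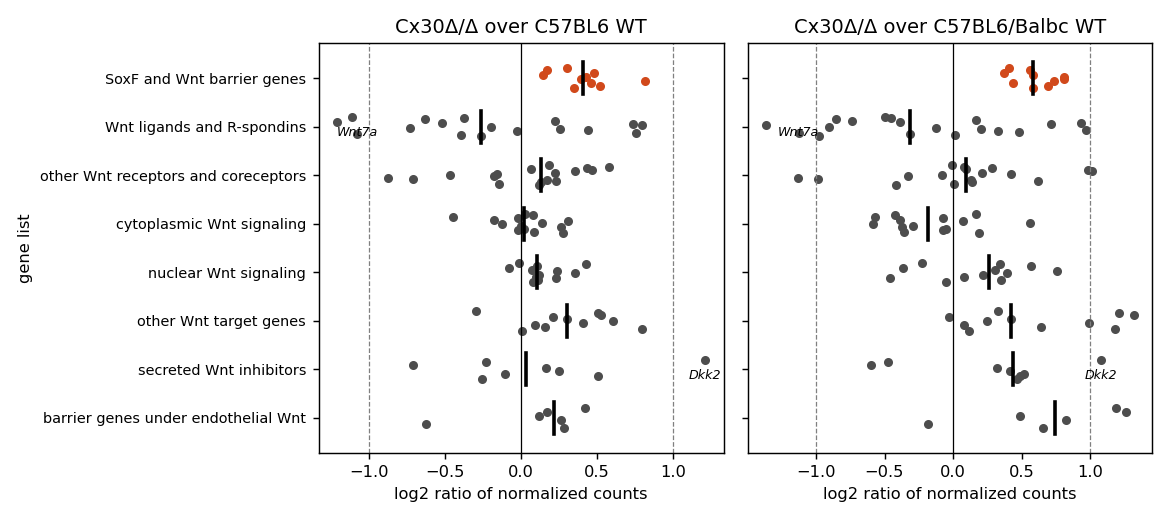
Log2 ratios of Cx30Δ/Δ over C57BL6 WT (left) and over C57BL6/Balbc WT (right), scaled on all genes, for the 10 genes (red) and the other Wnt pathway lists (grey), with 1 point per gene past the minimum, a black bar at each median and dashed lines at 2-fold. The 10 red points are all above 0 on this scaling (medians 0.41 and 0.58), the ligand medians are below 0 (-0.26 and -0.31), and Dkk2 and Wnt7a are marked as the genes past 2-fold in both panels.

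For each of the 10 genes, the most similar pattern was sought among 184 listed genes by the Euclidean distance over 2 log2 ratios, C57BL6/Balbc WT over C57BL6 WT and Cx30Δ/Δ over C57BL6 WT, that is over 3 libraries. Lef1 and Lrp5 were each nearest to the other (distance 0.04). Fzd4 and Apcdd1 were both nearest to Ctnnb1 (0.02 and 0.04), with a low C57BL6/Balbc WT value. Sox17 was nearest to Wnt16 (0.02), a gene with at most 95.5 normalized counts, and then to genes at 0.20 or more. The remaining pairs were Sox18 with Sfrp4 (0.04), Sox7 with the endothelial phosphatase gene Ptprb (0.08), Axin2 with Bcl9l (0.06), Adgra2 with Nkd1 (0.02) and Tspan12 with the fibroblast collagen gene Col1a2 (0.02). With 3 libraries, such nearness describes these values only.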

How the data were processed

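RNA of pooled brain vessels was sequenced by the authors as unstranded 50-base reads in 3 libraries, 1 per group. Base calls were made with CASAVA 1.8.2. The authors trimmed and filtered reads in Eoulsan, aligned them to mm10 with Bowtie, and removed reads matching more than once. The deposited files give, for each of 82813 transcripts, the raw count of alignments on its exons and that count as a fraction of a library total, beside its length and how many bases no read covered, all as made by the authors. A read on a shared exon counts for each transcript. The fraction served only to recover that total for an alternative scaling.

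Names and coordinates come from GENCODE M21 (GRCm38) through transcript identifiers (83.8% of rows), because the build of the files' own coordinates could not be settled. Each gene took its row with the largest total count. Library sizes were equalized by median-of-ratios size factors over all 3, which is how the authors' DESeq package normalizes, and no pseudocount was used. Ratios have exact conditional binomial (Clopper-Pearson) 95% intervals and levels exact Poisson intervals (scipy 1.17.1). Both cover read sampling only. A gene entered a comparison when either library held 50 or more normalized counts of it, and was called at 2-fold, after the authors' thresholds. The selection was tested on simulated counts, with planted changes larger than those of the 10 genes and read sampling as the only noise. That test does not bear on differences of their size or on variation between mice. All 10 genes were named, and of the other Wnt and Sox lists the highest and lowest gene in each comparison, genes past 2-fold in both, and direct partners of the 10. Cell lists are given as counts and medians. Some sequences and the values of 1 listed target gene are not reported here. The genes and lists were chosen with earlier results of these data known. Alternatives were other scalings (TMM by edgeR 4.0.16, upper quartile, sums of counts, endothelial genes), other rows, a pseudocount, other count minimums and a 1.5-fold threshold. The depth, between 50375426 and 60725557 summed counts, left every ratio of the 10 genes with a narrow counting interval, while the variation between mice and preparations is unknown.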

Additional observations from a re-analysis of the deposited data

How the results depend on the processing

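The direction of the median over the 10 genes depended on what the libraries were scaled on. Scaled on the 12 endothelial genes, the median log2 ratio was 0.13 for Cx30Δ/Δ over C57BL6 WT, -0.36 for Cx30Δ/Δ over C57BL6/Balbc WT and 0.45 between the WT libraries, against 0.41, 0.58 and -0.20, since the endothelial genes themselves differed by 0.28, 0.94 and -0.66. Of the 30 ratios of single genes, 19 changed sign under this scaling. Under the other scalings, rows and the pseudocount, 22 of 240 ratios moved past their counting interval and 4 changed sign, all 4 between the WT libraries, with a largest shift of 0.21. Scaling on the sum of the deposited counts brought the median of all genes to 0.13 for Cx30Δ/Δ over C57BL6/Balbc WT and to -0.13 between the WT libraries. With a threshold of 1.5-fold in place of 2-fold, 1 of the 10 genes was called higher against C57BL6 WT, 4 against C57BL6/Balbc WT and 1 against both, in place of 0. The other count minimums left each count at 0. No paired analysis was possible because the labels carry no replicate numbers and each group has 1 library. For the same reason no library could be left out, and depth sets only the counting intervals.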
